A study of Saccharomyces cerevisiae with 8 samples.

Results

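The genes described here are 36 peroxisome and fatty acid oxidation genes of the budding yeast Saccharomyces cerevisiae, 12 that encode enzymes and transporters of fatty acid beta-oxidation and 24 that encode peroxins, the proteins that assemble peroxisomes. They were listed by name and function, though with earlier results of these data known. All 36 were found by open reading frame among the 6256 genes of the array. In yeast the peroxisome is the sole site of fatty acid beta-oxidation, the stepwise shortening of acyl-CoA that yields acetyl-CoA. The transcription factors Oaf1 and Pip2 together induce many of the enzyme genes, and the peroxin gene PEX11, when cells are given oleate, and Adr1 supports this when glucose is scarce. In cells growing on glucose most of these genes are repressed. Matrix enzymes are made in the cytosol, carried to the peroxisome by the receptors Pex5 and Pex7, and passed through a membrane complex that ubiquitin and an ATPase then clear of receptors.

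The study compared 7 aneuploid strains (cells with an abnormal number of chromosomes), called A2, A3, A9 and A10 on the first slide row and A13, A14 and A15 on the second, with wild-type cells (WT2) on 2-colour Agilent arrays. Every strain had 1 array, with its own RNA in Cy5 and WT2 in Cy3, and the control was 1 array of WT1, a separate wild-type sample, over the same WT2. All cultures were in mid-log phase. The labels give neither the medium nor the karyotypes, nor do they say that samples came from separate cultures, so the p-values cover the spread among these samples alone, and that spread may be in part technical.

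Values are log2 ratios over WT2 after normalization, in which 1 is a 2-fold higher and -1 a 2-fold lower signal, and a ratio says nothing of one gene's level against another's. All strains share WT2 as their comparator, and the dyes were in the same orientation throughout, so a dye effect that all arrays share is part of every ratio and drops out only when WT1 is subtracted. Values relative to the chromosome have the median of the gene's chromosome on that array subtracted. Each strain has 1 array, so a value of a strain has no replicate, and the number of arrays limits the precision. Over the 36 genes, the duplicate spots of a gene differed by a median of 0.06, with a largest difference of 0.48. Median signals per array lay between 539 and 1532 in red and between 364 and 614 in green, over backgrounds of at most 37 and 22.5. On WT1 the 36 genes lay between -0.44 (PEX2) and 0.30 (PCS60), with a median of -0.02.

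Mating genes differed between the strains, most in A9 and A10. The 5 a cell markers (STE2, BAR1, STE6, MFA1 and MFA2) lay between -6.18 and -3.24 in A9 and between -6.38 and -3.27 in A10, against -0.13 to 0.14 on WT1. Their medians were -1.06 in A2, -1.04 in A3 and -1.84 in A15, each with 3 of 5 at least 2-fold lower, and -0.22 in A13 and 0.33 in A14. The 5 haploid markers lay between -5.00 and -2.28 in A10, against 0.10 to 0.23 on WT1, and their medians in the other strains lay between -0.90 in A9 and 0.01 in A14. The 4 alpha cell markers had a median of 0.34 in A10 and 4.89 in A9, against 0.03 on WT1. The part of these differences in the values of A10 below was not tested.

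The clearest pattern among the 36 genes was a higher signal of the enzyme genes in 1 strain, A10. The 12 enzyme genes had a median log2 ratio of 0.85 in A10, with 11 of 12 above 0, and a median of -0.00 on WT1. The 24 assembly genes had a median of 0.06 in A10, with 14 of 24 above 0, and a median of -0.02 on WT1. On chromosomes with a median log2 ratio of at least 0.3 in A10, 86.2% of all genes tested were above 0, against 36.8% on the others. In A10, 6 of the 36 genes were at least 2-fold higher (SPS19, POT1, PEX11, PXA2, FOX2 and POX1), 5 of the 12 enzyme genes and 1 of the 24 assembly genes, where 8.41% of all genes tested in A10 were at least 2-fold higher. None of the 36 genes was at least 2-fold lower in A10, where 3.46% of all genes were, although PEX14 was so with Agilent's processed signals. With 1 array for A10 these are values without a test.

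**Figure D1:**
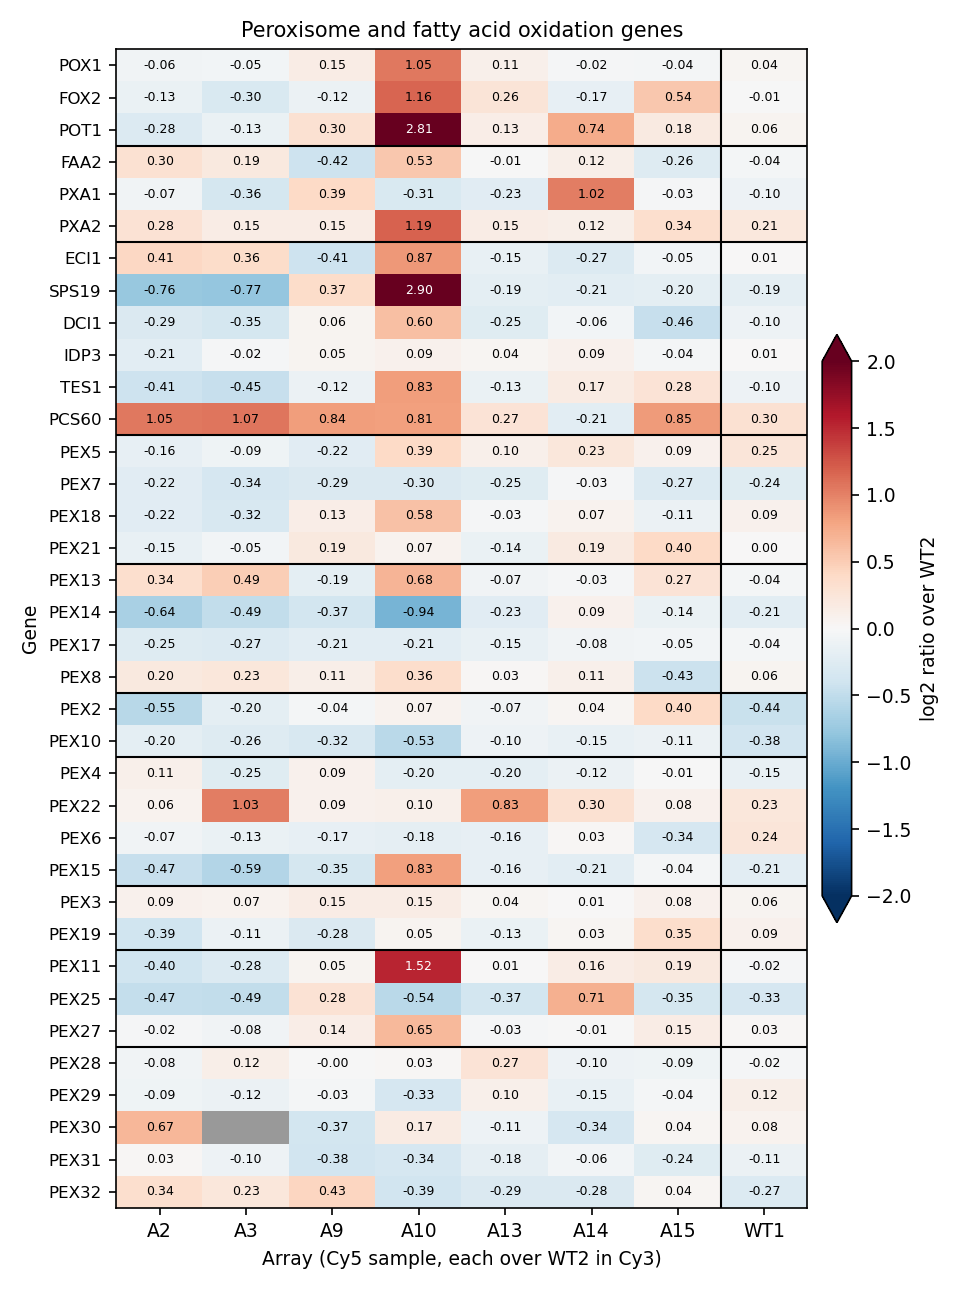
Log2 ratio over WT2 (colour and printed value) of the 36 genes, ordered by role from core enzymes at the top to size and number peroxins at the bottom, on the arrays of the 7 strains and of WT1. The A10 column holds the 2 highest values, 2.90 for SPS19 and 2.81 for POT1, and the grey cell is PEX30 in A3, which had no usable spot.

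The 3 enzymes of the core cycle come first. POX1 (YGL205W, chromosome VII), which encodes the acyl-CoA oxidase of the first step, had log2 ratios of -0.06 in A2, -0.05 in A3, 0.15 in A9, 1.05 in A10, 0.11 in A13, -0.02 in A14 and -0.04 in A15, against 0.04 on WT1. Its red signal was not well above background in A2, A3 and A15, so those 3 values are bounds. FOX2 (YKR009C, chromosome XI), which encodes the multifunctional enzyme of the middle steps, had log2 ratios of -0.13 in A2, -0.30 in A3, -0.12 in A9, 1.16 in A10, 0.26 in A13, -0.17 in A14 and 0.54 in A15, against -0.01 on WT1. POT1 (YIL160C, chromosome IX), which encodes the thiolase that releases acetyl-CoA, had log2 ratios of -0.28 in A2, -0.13 in A3, 0.30 in A9, 2.81 in A10, 0.13 in A13, 0.74 in A14 and 0.18 in A15, against 0.06 on WT1, the A2 value being a bound because red was not well above background there. All 3 were highest in A10, at 2.07-fold for POX1, 2.23-fold for FOX2 and 7.01-fold for POT1 over WT2, and the other strains lay on both sides of WT1 for each. The second value of POT1, in A14, and the second value of FOX2, in A15, were in strains in which the gene's chromosome was itself raised, at a median of 0.79 for chromosome IX in A14.

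The WT2 signal behind the POT1 ratio was low. In A10 the POT1 spots had a median signal of 1499 in red and 56.3 in green, over backgrounds of 39.5 and 21.5, and its duplicate spots gave log2 ratios of 2.84 and 2.77. Agilent's own processed signals, which differ in both background subtraction and dye normalization, gave 4.33 for POT1 and 2.40 for POX1 in A10. Without background correction, and with loess kept, the values were 3.15 and 1.25. The direction was the same under each, and the size was not.

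Among the genes of fatty acid entry, PXA2 stood apart in A10 and its partner did not. PXA2 (YKL188C, chromosome XI) and PXA1 (YPL147W, chromosome XVI) encode the partner subunits of the transporter that brings long-chain acyl-CoA into the peroxisome. PXA2 had log2 ratios of 0.28 in A2, 0.15 in A3, 0.15 in A9, 1.19 in A10, 0.15 in A13, 0.12 in A14 and 0.34 in A15, against 0.21 on WT1. PXA1 had log2 ratios of -0.07 in A2, -0.36 in A3, 0.39 in A9, -0.31 in A10, -0.23 in A13, 1.02 in A14 and -0.03 in A15, against -0.10 on WT1. PXA2 was thus highest in A10 and PXA1 highest in A14, where its chromosome XVI had a median of 0.75. The spots of PXA2 in A10 differed more than any other pair among the 36 genes, with log2 ratios of 1.43 and 0.95. FAA2 (YER015W, chromosome V), which encodes a peroxisomal acyl-CoA synthetase that activates medium-chain fatty acids, ranged over the strains from -0.42 in A9 to 0.53 in A10 with a median of 0.12, against -0.04 on WT1.

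The auxiliary enzymes, which handle double bonds, cofactors and side reactions, were above 0 in A10 for 6 of 6 genes. Of all genes tested in A10, 86.2% on raised chromosomes and 36.8% on the others were above 0. Among the 6, ECI1 and DCI1 lay on chromosomes raised in A10, and IDP3 was only at 0.09. SPS19 (YNL202W, chromosome XIV), which encodes a dienoyl-CoA reductase for unsaturated fatty acids and is also expressed in sporulation, had log2 ratios of -0.76 in A2, -0.77 in A3, 0.37 in A9, 2.90 in A10, -0.19 in A13, -0.21 in A14 and -0.20 in A15, against -0.19 on WT1. Its A10 value was 7.45-fold over WT2 with spots at 2.90 and 2.89, and A2 and A3 were lower than WT1. PCS60 (YBR222C, chromosome II), which encodes a peroxisomal oxalyl-CoA synthetase, had log2 ratios of 1.05 in A2, 1.07 in A3, 0.84 in A9, 0.81 in A10, 0.27 in A13, -0.21 in A14 and 0.85 in A15, against 0.30 on WT1. On these ratios, unlike most enzyme genes, it was highest in A3 and A2, not in A10, and lowest in A14. Its chromosome II was raised in A2, A3, A9 and A15 and not in A10. Relative to that chromosome PCS60 was highest in A10, at 0.95, with 0.39 in A2 and 0.34 in A3, against 0.30 on WT1.

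The other 4 auxiliary genes were less spread. ECI1 (YLR284C, chromosome XII), which encodes an enoyl-CoA isomerase, ranged from -0.41 in A9 to 0.87 in A10 with a median of -0.05, against 0.01 on WT1. TES1 (YJR019C, chromosome X), which encodes an acyl-CoA thioesterase, ranged from -0.45 in A3 to 0.83 in A10 with a median of -0.12, against -0.10 on WT1. DCI1 (YOR180C, chromosome XV), an ECI1 paralog, ranged from -0.46 in A15 to 0.60 in A10 with a median of -0.25, against -0.10 on WT1. All 3 had their highest ratio over WT2 in A10, where the chromosomes of ECI1 and DCI1 were raised. Relative to the chromosome, ECI1 was at 0.55, TES1 at 0.92 and DCI1 at 0.02 in A10. On that scale DCI1 was highest in A9, at 0.11. IDP3 (YNL009W, chromosome XIV), which encodes the NADP-dependent isocitrate dehydrogenase of the peroxisome, ranged from -0.21 to 0.09 over the strains, against 0.01 on WT1. It was not well above background in red in A15 and in green in A9. Its signals were low on every array, at most 76 in red (A10, background 36.5) and 69 in green (A2, background 21.75). Its difference from WT1 ran from -0.03 to 0.60 over the alternatives, so the narrow range depends on the processing.

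**Figure D2:**
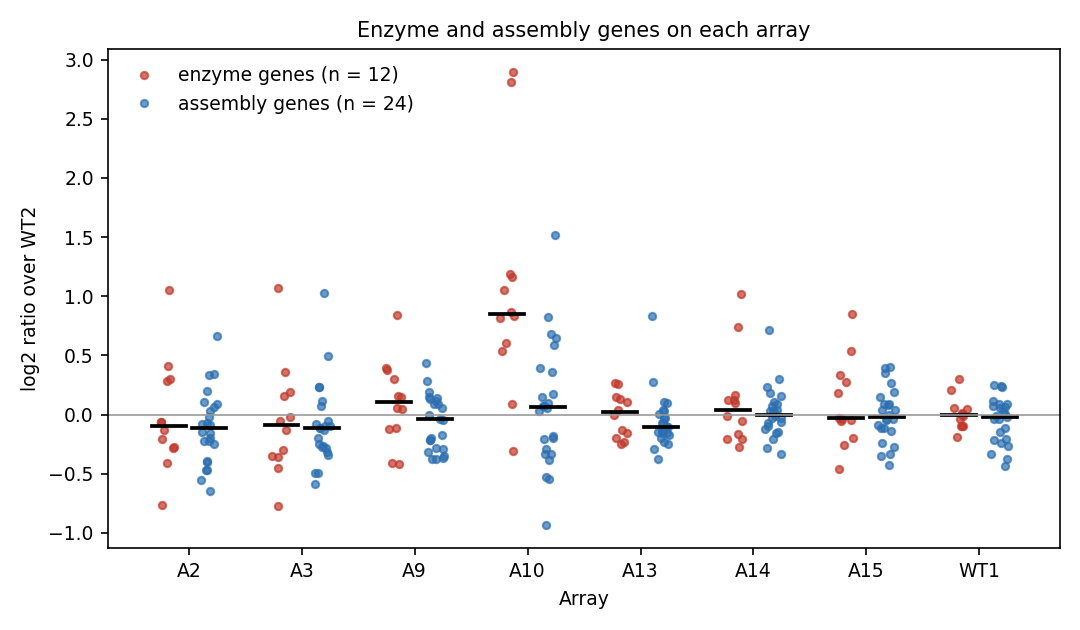
Log2 ratio over WT2 of each of the 12 enzyme genes (red, left in each pair) and 24 assembly genes (blue, right) on each array, with black bars at the medians. In A10 the enzyme median of 0.85 lies apart from the assembly median of 0.06, while on the other arrays the medians of both classes lie within 0.15 of each other.

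Among the assembly genes PEX11 had the highest value. PEX11 (YOL147C, chromosome XV), whose product elongates and multiplies peroxisomes, had log2 ratios of -0.40 in A2, -0.28 in A3, 0.05 in A9, 1.52 in A10, 0.01 in A13, 0.16 in A14 and 0.19 in A15, against -0.02 on WT1. It was 2.86-fold over WT2 in A10, and every other strain lay below A10 by more than 1 on the log2 scale. Its relatives in proliferation differed from it. PEX27 (YOR193W, chromosome XV) ranged from -0.08 to 0.15 outside A10 and reached 0.65 in A10, against 0.03 on WT1. PEX25 (YPL112C, chromosome XVI) ranged from -0.54 in A10 to 0.71 in A14 with a median of -0.37, against -0.33 on WT1.

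The membrane assembly factors Pex3 and Pex19 insert peroxisomal membrane proteins, and PEX3 had the smallest spread of log2 ratios over WT2 among the 36 genes. PEX3 (YDR329C, chromosome IV) had log2 ratios of 0.09 in A2, 0.07 in A3, 0.15 in A9, 0.15 in A10, 0.04 in A13, 0.01 in A14 and 0.08 in A15, against 0.06 on WT1. Its SD over the strains of 0.05 (n = 7) was at percentile 0.604 of all genes, so that almost no gene varied less on that scale. Relative to the chromosome its SD was 0.11, at percentile 9.13, and 7 of the 36 genes had a smaller one, the smallest being 0.08 for PEX28. PEX19 (YDL065C, chromosome IV) had log2 ratios of -0.39 in A2, -0.11 in A3, -0.28 in A9, 0.05 in A10, -0.13 in A13, 0.03 in A14 and 0.35 in A15, against 0.09 on WT1. Only A15 was above WT1.

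On these values the import receptors stayed below 2-fold in every strain. With Agilent's processed signals or the deposited table, PEX18 was at least 2-fold higher in A10 and at least 2-fold lower in A2 and A3. PEX5 (YDR244W, chromosome IV), which encodes the receptor for the common PTS1 signal, had log2 ratios of -0.16 in A2, -0.09 in A3, -0.22 in A9, 0.39 in A10, 0.10 in A13, 0.23 in A14 and 0.09 in A15, against 0.25 on WT1. A10 alone was above WT1. PEX7 (YDR142C, chromosome IV) encodes the receptor of the PTS2 signal, which the POT1 product carries, and ranged from -0.34 in A3 to -0.03 in A14, against -0.24 on WT1. Its value in A10 was -0.30, beside 2.81 for its cargo gene POT1. The Pex7 co-receptor genes were PEX18 (YHR160C, chromosome VIII), from -0.32 in A3 to 0.58 in A10 against 0.09 on WT1, and PEX21 (YGR239C, chromosome VII), from -0.15 in A2 to 0.40 in A15 against 0.00 on WT1. PEX18 was not well above background in red in A3 and in green in A9. Its green signal was at most 59 on any array (A3, background 22).

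In the docking complex the genes of A10 lay on both sides of 0. PEX14 (YGL153W, chromosome VII), a docking protein for loaded receptors, ranged from -0.94 in A10 to 0.09 in A14 with a median of -0.37, against -0.21 on WT1, and its A10 value was the lowest of any of the 36 genes in any strain. PEX13 (YLR191W, chromosome XII), its partner, ranged from -0.19 in A9 to 0.68 in A10, against -0.04 on WT1. PEX17 (YNL214W, chromosome XIV) ranged narrowly from -0.27 to -0.05, against -0.04 on WT1. PEX8 (YGR077C, chromosome VII), which links docking to the ubiquitin ligases, was between 0.03 and 0.36 in 6 strains and at -0.43 in A15, against 0.06 on WT1.

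The genes of ubiquitination and receptor recycling stayed within 2-fold, apart from PEX22 in A3. PEX2 (YJL210W, chromosome X), a RING ubiquitin ligase, ranged from -0.55 in A2 to 0.40 in A15, against -0.44 on WT1. PEX10 (YDR265W, chromosome IV), another RING ligase, ranged from -0.53 in A10 to -0.10 in A13, against -0.38 on WT1. PEX4 (YGR133W, chromosome VII), the ubiquitin-conjugating enzyme, ranged from -0.25 to 0.11, against -0.15 on WT1. These 3 spanned WT1 in each case. PEX22 (YAL055W, chromosome I), the membrane anchor of Pex4, had log2 ratios of 0.06 in A2, 1.03 in A3, 0.09 in A9, 0.10 in A10, 0.83 in A13, 0.30 in A14 and 0.08 in A15, against 0.23 on WT1. It was high in A3 and A13, the 2 strains with a raised chromosome I. PEX6 (YNL329C, chromosome XIV), an ATPase that extracts receptors, ranged from -0.34 in A15 to 0.03 in A14, all below the 0.24 of WT1. PEX15 (YOL044W, chromosome XV), which anchors Pex6, was between -0.59 and -0.04 in 6 strains and at 0.83 in A10, against -0.21 on WT1.

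The size and number peroxins, membrane proteins that regulate peroxisome size and number, included no gene past 2-fold. PEX28 (YHR150W, chromosome VIII) ranged from -0.10 to 0.27, against -0.02 on WT1. PEX29 (YDR479C, chromosome IV) ranged from -0.33 to 0.10, against 0.12 on WT1. PEX31 (YGR004W, chromosome VII) ranged from -0.38 to 0.03, against -0.11 on WT1. The remaining 2 lie on chromosomes that were raised in several strains. PEX30 (YLR324W, chromosome XII) ranged from -0.37 in A9 to 0.67 in A2 over the 6 strains with a value, against 0.08 on WT1. PEX32 (YBR168W, chromosome II) ranged from -0.39 in A10 to 0.43 in A9, against -0.27 on WT1. Both were above 0 in each strain with the chromosome raised, but PEX30 was at only 0.17 in A10 and PEX32 at 0.04 in A15.

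The comparison of enzyme with assembly genes was made on each array. The enzyme median minus the assembly median was 0.02 in A2, 0.03 in A3, 0.14 in A9, 0.79 in A10, 0.12 in A13, 0.04 in A14 and -0.01 in A15, against 0.01 on WT1. The mean over the strains was 0.16 ± 0.28 (SD, n = 7), and without A10 it was 0.06 ± 0.06 (SD, n = 6). The difference between the classes was thus largest in A10, with A9 next. Relative to the chromosome the difference in A10 was 0.52, between medians of 0.61 and 0.09, against 0.02 on WT1. Over the other 6 strains it averaged 0.0018 ± 0.11 (SD), an average of both signs, with 0.19 in A9 and -0.13 in A15. The size of the largest WT1 value among the 36 genes, 0.44, was exceeded upwards in A10 by 10 of 12 enzyme genes and 5 of 24 assembly genes, where 25.1% of all genes tested exceeded it. In A10 3 assembly genes and no enzyme gene lay below -0.44, where 20.3% of all genes did.

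The enzyme genes also varied more over the strains by their median SD. It was 0.45 over the 7 strains, against 0.25 for the assembly genes and 0.32 for all genes tested. Relative to the chromosome these medians were 0.31, 0.14 and 0.23. SPS19 was at percentile 99.2 of SD, POT1 at 98.6 and PEX11 at 92.7. These were the only members in the top 10% of genes, 2 of 12 enzyme genes and 1 of 24 assembly genes. The part of the single A10 array in these SDs was not tested. A10 was the highest strain for 9 of 12 enzyme genes (75%) and 8 of 24 assembly genes (33.3%), against 26.0% of 6073 genes.

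**Figure D3:**
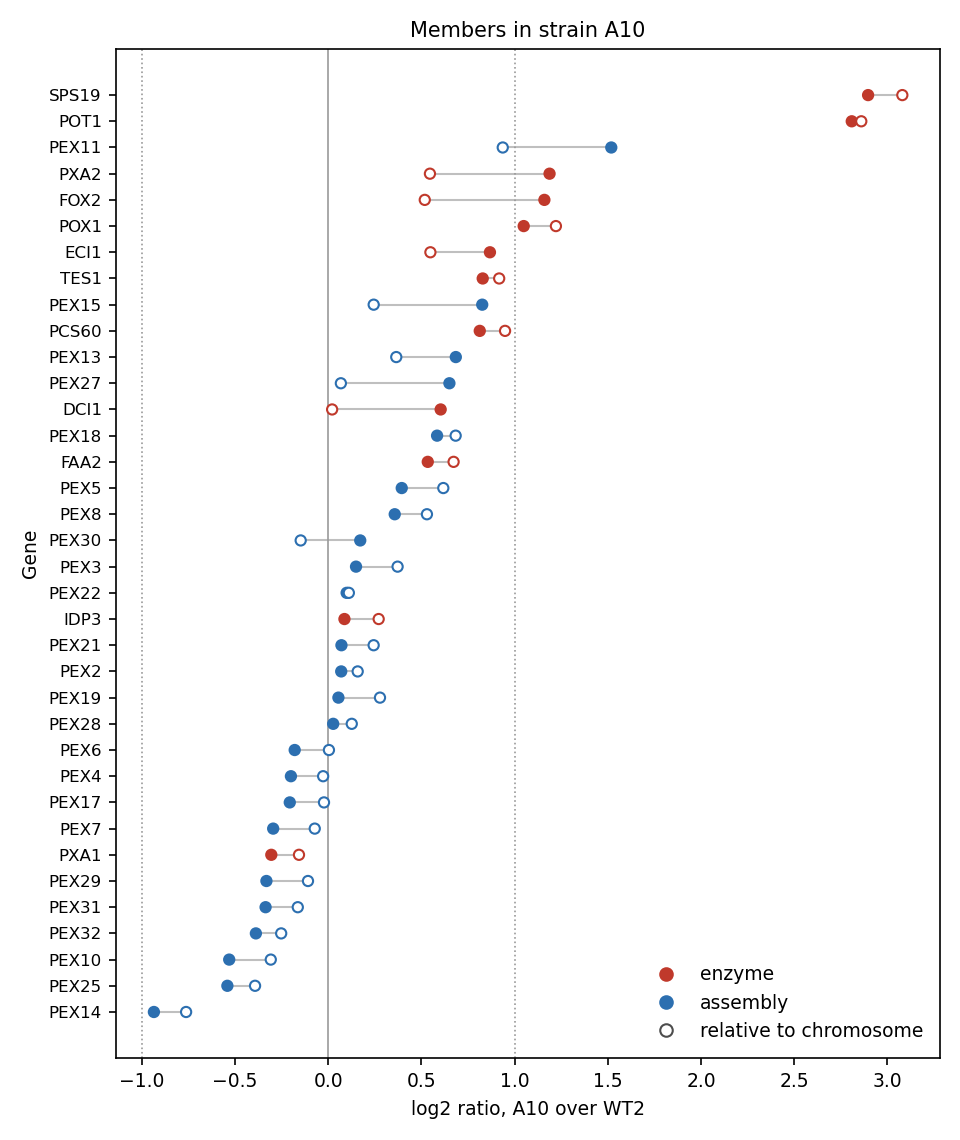
Log2 ratio of each of the 36 genes in A10 over WT2 (filled points, enzymes red, assembly blue) and relative to the median of its chromosome (open points), with dotted lines at 2-fold. SPS19 and POT1 keep values near 3 on both scales, whereas FOX2, PXA2 and PEX11 lie below 1 relative to their chromosomes.

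Because the strains carry raised chromosomes, the genes were also read by the median of their chromosome, and those on a raised chromosome had higher ratios. A chromosome was called raised in a strain when its median log2 ratio was at least 0.3. There were 33 pairs of a gene and a strain with the gene's chromosome raised, over 17 genes, with a median log2 ratio of 0.65, and 33 of 33 were above 0. For all genes tested such pairs had a median of 0.60 with 92.3% above 0. In the 218 pairs without a raised chromosome the median was -0.08 with 79 above 0 (36.2%), against -0.05 and 41.8% for all genes. Without A10 the medians were 0.46 over 24 pairs and -0.09 over 191. The full count depended on the threshold. Chromosomes II, XI and VIII of A13, with medians of 0.28, 0.26 and 0.23, counted as not raised. At a threshold of 0.2, 37 of 39 pairs on raised chromosomes were above 0, with a median of 0.49 and a lowest value of -0.29. At 0.45, 30 of 30 were above 0. The chromosome medians are themselves measured on these arrays, so this split describes them and is no test.

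Of the 10 values at least 2-fold higher, 7 were on raised chromosomes. They were PCS60 in A2 and A3 (chromosome II), PEX22 in A3 (chromosome I), PXA1 in A14 (chromosome XVI), and FOX2, PXA2 and PEX11 in A10. The counts were 1 gene in A2, 2 in A3 and 1 in A14, where 2.68%, 2.08% and 2.98% of all genes passed. The shares of the members were near those of all genes in A2 and A14, and in A3 the count of 2 among 35 members with a value was too small to say more. None of the 36 passed in A9, A13 or A15, where 4.24%, 0.426% and 2.29% of all genes did, or on WT1, where 0% did. On these values none of the 36 was at least 2-fold lower in any strain, where the shares of all genes were 1.1% in A2, 0.686% in A3, 1.24% in A9, 0.0984% in A13, 0.327% in A14, 1.27% in A15 and 0.0163% on WT1. That absence depended on the processing: with Agilent's processed signals, 14 values passed 2-fold upwards and 7 downwards, namely POX1 in A3, POT1 in A2, SPS19 and PEX18 in A2 and A3, and PEX14 in A10. The 3 others were POX1, POT1 and SPS19 in A10, whose chromosomes VII, IX and XIV were not raised there.

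With chromosome medians subtracted, A10 was the one strain with any of the 36 genes at least 2-fold higher. SPS19 was at 3.08, POT1 at 2.86 and POX1 at 1.22 on that scale, where 5.93% of all genes in A10 passed. The other shares of all genes on that scale, with 0 of the 36 in each, were 0.262% in A2, 0.114% in A3, 1.73% in A9, 0.262% in A13, 0.589% in A14, 0.621% in A15 and 0% on WT1. The genes whose chromosomes were raised in A10 lay lower on that scale, PEX11 at 0.94, PXA2 at 0.55, ECI1 at 0.55 and FOX2 at 0.52. The 8 enzyme genes on chromosomes not raised in A10 had a median log2 ratio of 0.82, and the 19 assembly genes on such chromosomes had one of -0.18, against -0.15 for all genes on such chromosomes in A10. The genes directly next to POT1 and SPS19 were below 0 in A10, and 1 of the genes at the second position from each was high. The neighbours of POT1 were SMU2 at -0.10 and BNR1 at -0.74, with SUC2 at 1.53 and AIM20 at -0.30 beyond them. Those of SPS19 were SPS18, a gene of the same divergent pair, at -0.74 and PSY2 at -0.41, with NNR1 at 1.16 and RTT106 at -0.41 beyond them.

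**Figure D4:**
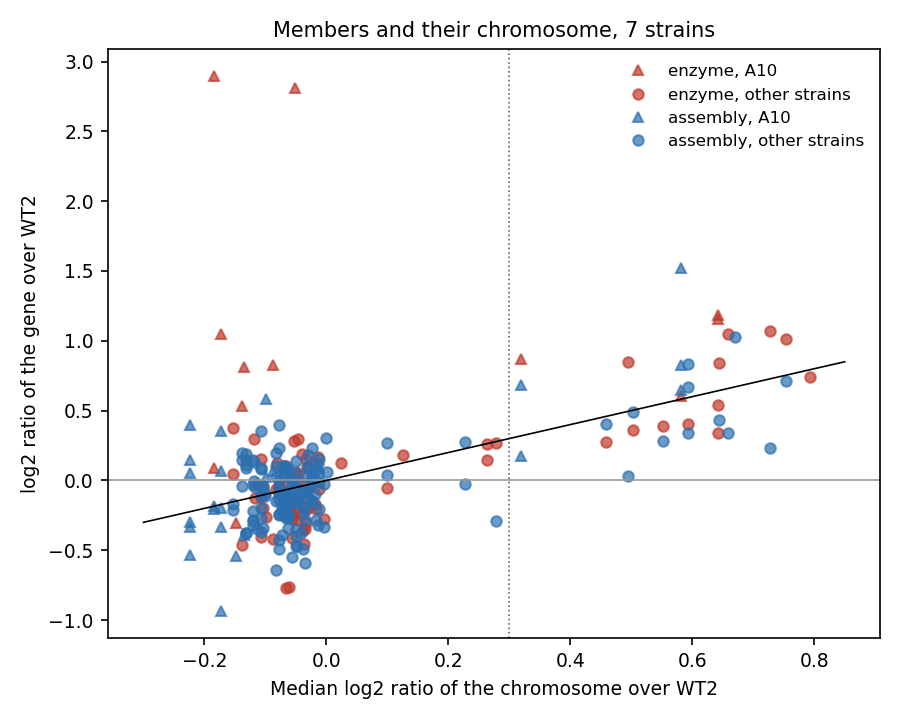
Log2 ratio of each gene in each strain (vertical axis) against the median log2 ratio of its chromosome in that strain (horizontal axis), enzymes red, assembly blue, A10 as triangles, with the line of equality and a dotted line at the threshold of 0.3. All 33 points right of the threshold lie above 0. The points furthest above the line on the left are SPS19, POT1 and POX1 in A10, followed by PCS60 (0.95 above it) and TES1 (0.92 above it) in A10.

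The strains as a group were tested against WT1, the comparison the design implies. No gene passed limma's test of the 7 strains minus WT1 at adjusted p under 0.05, whether among the 36 (0 genes) or among all 6126 tested (0%), and at an unadjusted p under 0.05 it called 0 of the 36 and 32 of the 6126. The median difference was 0.13 for the enzyme genes and 0.03 for the assembly genes, against 0.04 for all genes. The smallest unadjusted p among the 36 was that of PEX6, with a difference of -0.39 (SE 0.18, unadjusted p = 0.0619, adjusted p = 0.9996, limma), lower than WT1 in 7 of 7 strains. For POT1 the difference was 0.48 with an SE of 0.96 and for SPS19 it was 0.35 with an SE of 1.15, errors that a single high strain and a single WT1 array leave wide. After subtraction of chromosome medians limma also called 0 of the 36 and 0 of 6126, with 52 of the 6126 and none of the 36 at an unadjusted p under 0.05.

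All 7 strains lay below WT1 for 3 genes, PEX6, PEX17 and PEX29 (8.33% of the 36), where the same held for 7.34% of all genes with a value on every array. For none of the 36 did all strains lie above WT1, where 6.88% of all genes did. All 3 are assembly genes, and their share was near that of all genes.

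Set against WT2 alone, PCS60 was the only member called higher. Its mean log2 ratio over the 7 strains was 0.67 (SE 0.16, adjusted p = 0.0477, limma), above 0 in 6 of 7 strains, where 2.33% of all genes tested were called higher. No member was called lower, where 3% of all genes were. Counts this small do not set the members apart from all genes. WT1 also lay above 0 for PCS60, at 0.30, and the difference of the strains from WT1 was 0.37 (SE 0.45, adjusted p = 0.9996, limma). The call depended on most strains: it was lost when any of A2, A3, A9, A10, A13 or A15 was left out, with adjusted p between 0.0663 and 0.134 in limma, and its adjusted p ranged from 0.0295 to 0.659 over the alternatives tried. Its mean relative to the chromosome was 0.29 (adjusted p = 0.145, limma).

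Relative to the chromosome and against WT2, 2 assembly genes were called lower, PEX25 and PEX32, and no member was called higher. Of all genes, 6.2% were called lower and 5.19% higher. Such small counts again do not set the members apart from all genes. PEX25 had values relative to its chromosome of -0.42 in A2, -0.45 in A3, -0.27 in A9, -0.39 in A10, -0.33 in A13, -0.04 in A14 and -0.23 in A15, against -0.34 on WT1, with a mean over the strains of -0.31 (SE 0.06, adjusted p = 0.0232, limma). PEX32 had -0.32 in A2, -0.49 in A3, -0.21 in A9, -0.25 in A10, -0.57 in A13, -0.27 in A14 and -0.46 in A15, against -0.27 on WT1, with a mean of -0.37 (SE 0.06, adjusted p = 0.0162, limma). WT1 was about as low as the strains for both, and the differences from WT1 were 0.03 for PEX25 and -0.10 for PEX32. The PEX25 call was lost in limma without A2, A3, A9 or A13 and the PEX32 call without A3, with adjusted p over all alternatives between 0.0135 and 0.482 for PEX25 and between 0.0102 and 0.402 for PEX32.

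The neighbouring pathway was read from 40 other genes chosen by their roles. Limma called none of them in the strains minus WT1 (0 at an unadjusted p under 0.05). Against WT2 it called 1 higher and 1 lower, where 2.33% of all genes tested were called higher and 3% lower. Against WT2 relative to the chromosome it called 3 higher and 1 lower, where the shares of all genes were 5.19% and 6.2%. These counts are too small to set the 40 genes apart from all genes. Against WT2, AGP2, which encodes a plasma membrane transporter of carnitine, rose by a mean of 0.44 (adjusted p = 0.0430, limma), above the -0.19 of WT1 in 7 of 7 strains. AGP2 lies on chromosome II, raised in A2, A3, A9 and A15, and relative to its chromosome its mean was 0.06 (adjusted p = 0.806, limma), with 5 of 7 strains below 0. MIG1, which encodes the repressor of glucose-repressed genes, fell by 0.39 (adjusted p = 0.0430, limma) and lay below the -0.04 of WT1 in 7 of 7 strains. Relative to the chromosome the mean of MIG1 was -0.30 (adjusted p = 0.0383, limma) and that of CIT2, the peroxisomal citrate synthase gene, was 0.38 (adjusted p = 0.0412, limma). On that scale ACS1, a gene of acetate activation, averaged 0.22 (adjusted p = 0.0312, limma) and PCK1, a gene of gluconeogenesis, averaged 0.62 (adjusted p = 0.0346, limma). None of these 5 genes passed the test against WT1. Their calls depended on single strains: each was lost in limma without A2, without A3, without A9, without A13 and without A15, and with only the slide row of WT1, and the MIG1 call against WT2 was lost whichever strain was left out. Over the alternatives adjusted p in limma ranged from 0.0298 to 0.579 for AGP2 and from 0.0382 to 0.569 for MIG1 against WT2, and relative to the chromosome from 0.0372 to 0.402 for MIG1, from 0.0243 to 0.530 for CIT2, from 0.0188 to 0.482 for ACS1 and from 0.0119 to 0.402 for PCK1.

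In A10 the regulators of the pathway were themselves mixed. PIP2 had a log2 ratio of 1.28 in A10 and between -0.16 and 0.01 in the other strains, against -0.07 on WT1. Its chromosome XV was raised in A10, and relative to it PIP2 was at 0.70. ADR1 had 1.34 in A10 and 0.65 in A13, with the other strains between -0.07 and 0.42, against 0.02 on WT1. OAF1, the partner of PIP2, was at -0.44 in A10 and was high in A3 (0.84) and A13 (0.76), the strains with a raised chromosome I.

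Of the genes that hand on the acetyl-CoA of beta-oxidation, some were also high in A10. The acetyl-carnitine shuttle, 5 genes, had a median of 1.32 in A10, against -0.19 on WT1. In A10, 3 of the 5 were at least 2-fold higher, where 8.41% of all genes tested were. CRC1, the mitochondrial carnitine carrier gene, was at 2.002 in A10 and 0.83 in A9, against -0.20 on WT1. Its chromosome XV was raised in A10, and relative to it CRC1 was at 1.42 there. CAT2, the carnitine acetyltransferase gene, was at 1.32 in A10 and 1.21 in A9, against -0.27 on WT1. Its chromosome XIII was raised in A9, and relative to it CAT2 was at 0.51 there. YAT1, a second carnitine acetyltransferase gene, was at 1.85 in A10 and 1.02 in A13, against -0.02 on WT1. Its chromosome I was raised in A13, and relative to it YAT1 was at 0.43 there. AGP2 was at 0.81 and YAT2, a further carnitine acetyltransferase gene, at -0.15 in A10, against -0.19 and 0.04 on WT1. Among the 12 other matrix and membrane proteins the median was 0.50 in A10, against -0.06 on WT1. Their A10 values ran from -0.28 for CTA1 to 1.49 for MLS1, the malate synthase gene of the glyoxylate cycle. In A10, 2 of the 12 (MLS1 and PNC1) were at least 2-fold higher, beside the same 8.41% of all genes.

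The 7 glucose-repressed genes were highest in A10 as a list. Their median was 1.53 in A10 and between 0.13 and 0.42 in the other strains, against -0.06 on WT1. In A10, 4 of the 7 were at least 2-fold higher, where 8.41% of all genes tested were. JEN1, a lactate transporter gene, was at 3.12, PCK1 at 2.26, FBP1, of gluconeogenesis, at 1.72 and SUC2, the invertase gene, at 1.53 in A10. The part of these genes in the enzyme values of A10 was not tested.

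Other peroxisomal proteins had other patterns over the strains. PNC1 and GPD1, whose products (a nicotinamidase and a glycerol phosphate dehydrogenase) enter peroxisomes together, had the widest ranges of that list. PNC1 had log2 ratios of -1.15 in A2, -0.93 in A3, 1.19 in A9, 1.02 in A10, 0.23 in A13, 0.57 in A14 and -1.60 in A15, against 0.33 on WT1. GPD1 had log2 ratios of -1.38 in A2, -1.03 in A3, 0.51 in A9, 0.78 in A10, -0.33 in A13, 0.46 in A14 and -1.02 in A15, against -0.04 on WT1. Both were low in A2, A3 and A15 and high in A9, A10 and A14. CTA1, the peroxisomal catalase gene, did not share the A10 values of the enzymes, at -0.28 in A10 against 0.03 on WT1. FIS1, a gene of peroxisome and mitochondrial division, was at 1.47 in A14 and 0.99 in A10, against 0.19 on WT1. Its chromosome IX was raised in A14, and relative to it FIS1 was at 0.68 in A14 and 1.04 in A10. Of 5 further assembly genes none was past 2-fold in any strain, with a median of -0.06 in A10.

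**Figure D5:**
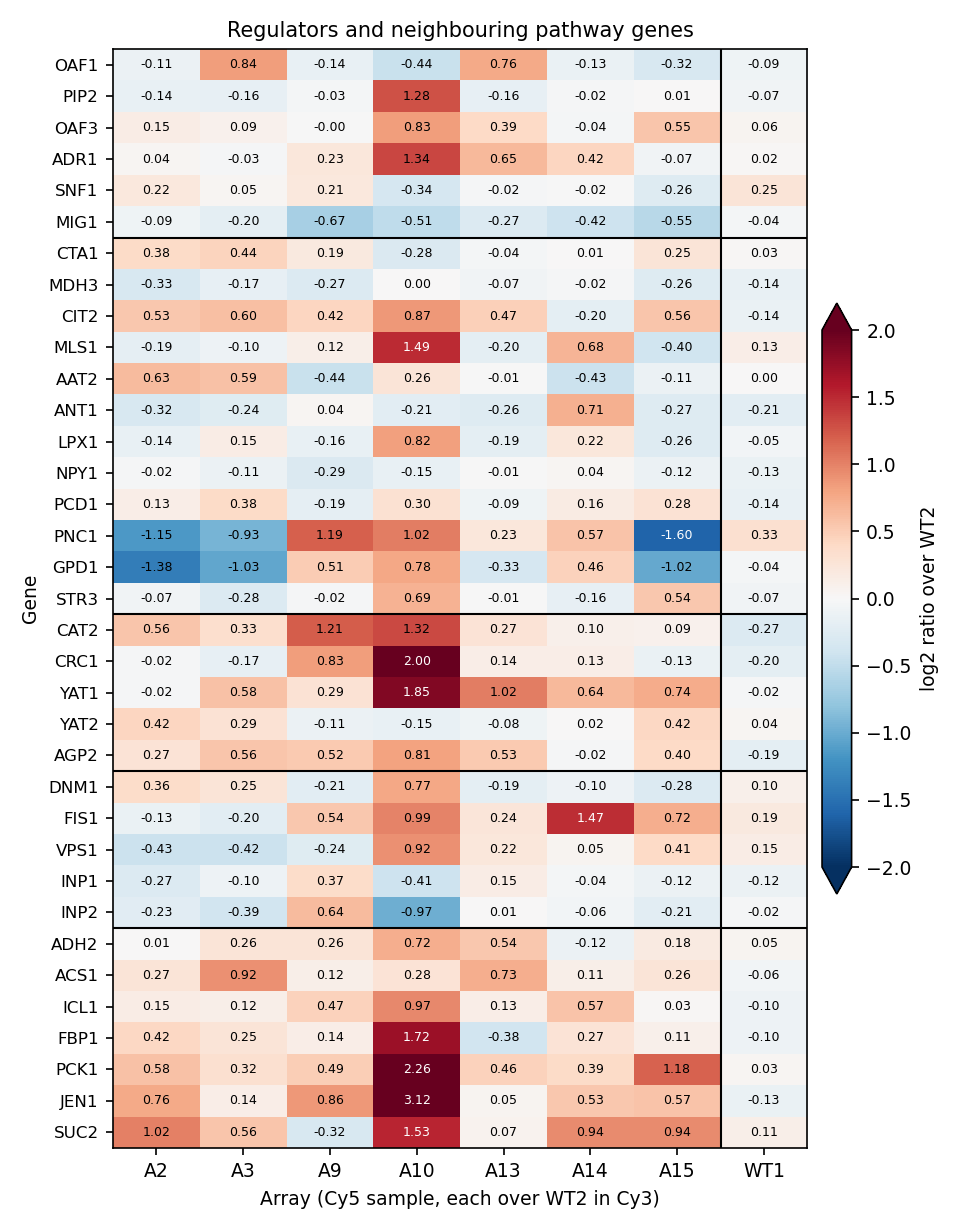
Log2 ratio over WT2 (colour and printed value) of regulators, other peroxisomal proteins, the acetyl-carnitine shuttle, division genes and glucose-repressed genes, in that order from the top, on the 7 strains and WT1. JEN1 (3.12), PCK1 (2.26) and CRC1 (2.002) have the highest values, all in A10, and PNC1 and GPD1 are low in A2, A3 and A15.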

How the data were processed

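Per the file headers, the authors' deposited scanner files came from Agilent Feature Extraction 10.5.1.1. The deposited median intensity of spots and of their local background, in red (Cy5) and green (Cy3), was the starting point. The deposited log10 ratio of processed signals, from which the headers say background was subtracted and dyes were normalized, and the authors' deposited log2 ratio table served as alternatives. No dyes were swapped, and the arrays shared 1 slide (A2, A3, A9 and A10 in its first row, A13, A14, A15 and WT1 in its second).

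Background was corrected by normexp (offset 50) and ratios were normalized by loess within each array in limma 3.58.1 (R 4.3.3), with weight 0 for 536 control spots. Spots with outlier flags were removed (591), and the 2 spots of a gene were averaged. A gene was tested if red or green was well above background on 2 or more arrays, which kept 6126 of 6256 genes and all 36 members. limma's lmFit and eBayes were two-sided with Benjamini-Hochberg adjustment over all genes tested, and WT1, a single array, was taken to vary as the strains do. Columns belonging to no sample numbered 0. The steps were tested on simulated data.

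Members and lists were chosen with earlier results of these data known. Every member is named. Values on every array are given for members past a test, past 2-fold in a strain, or in the core cycle, with PEX3, PEX5, PEX11 and PEX19. Other pathway genes past a test or past 2-fold could be named, and a few others were named after their values were seen (CTA1 and the mating markers), as were the neighbouring genes. Names came from a table of assembly R64, while the array design follows an older build, so no coordinates are given. Sequence features planned for the members were not analysed here. Alternatives covered background, normalization, signal filter, centring, outlier spots, single strains, slide row and thresholds.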

Additional observations from a re-analysis of the deposited data

Results flagged for a closer look

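Dixon's criterion asks whether 1 of the 7 strains stands apart, by a gap to its nearest neighbour that is large against the whole range. It flagged 9 of the 36 genes, and in 7 of the 9 the strain was A10. Chance alone gives such a flag in about 1 in 20 groups, but the share of all genes flagged is not given here. The count is therefore not read as an excess among these genes. A10 also had the widest spread of ratios over all genes tested, with an SD of 0.71, against 0.27 in A13 to 0.55 in A9. The enzyme genes were POT1 at 2.81, SPS19 at 2.90, POX1 at 1.05 and PXA2 at 1.19 in A10, all higher than in the other strains. The assembly genes in A10 were PEX11 at 1.52, PEX15 at 0.83 and PEX27 at 0.65, and all 3 lie on chromosome XV, whose median was 0.58 in A10. The remaining 2 were PEX7, at -0.0273 in A14 above the other strains, and PEX8, at -0.43 in A15 below them. The median of the 12 enzyme genes stood apart in the same way, at 0.85 in A10. The genes of 1 array share its RNA and its hybridisation, so these are not separate observations of A10.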

How the results depend on the processing

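In the strains minus WT1, with or without chromosome medians subtracted, limma called 0 of the 36 genes under every alternative run. Against WT2 the count of members called was 1, with 0 to 1 when 1 strain was left out, 0 without A9 and A10, and 0 with only the slide row of WT1. Relative to the chromosome it was 2, with 0 (without A3) to 4 (without A10) when 1 strain was left out, 1 without A9 and A10, and 0 with the slide row of WT1, where 3 strains remain. The count over all genes was as uneven: against WT2 it was 327 (43.7% higher), 554 with processed signals (54.3% higher) or the deposited table, 374 with centring on chromosomes not raised (65.8% higher), and 0 to 470 when 1 strain was left out, while relative to the chromosome it was 698 and 89 to 857. With that centring the median of all genes in A10 was 0.14. Values of members at least 2-fold higher or lower in a strain numbered 10 (10 higher, 0 lower), 21 with processed signals and 21 with the deposited table (14 higher, 7 lower), and 28 at 1.5-fold (23 higher, 5 lower), and, as alternatives chosen after seeing the data, 4 without A10 and 3 relative to the chromosome (none lower). Beyond the fewer strains or the lower threshold, the cause was not tested. The enzyme minus assembly difference in A10 was 0.77 to 0.84 over the alternatives of processing and 0.52 relative to the chromosome, and in A9 it was 0.14, against 0.45 with processed signals. No paired analysis was possible because the labels give the strains and WT1 no shared replicate numbers.

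Each strain and WT1 had 1 array, which limits the precision, and the WT2 signals of POT1 and POX1 were low over background (ratios of 2.81 and 1.05 in A10, against 4.33 and 2.40 with processed signals, where both background and dye steps differ).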
